A study of Mus musculus with 2 samples.

Results

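The metallothionein genes Mt1, Mt2 and Mt3, 3 of the 32285 genes in the count matrix, were described across the cell types of the adult mouse vomeronasal organ, and were taken by gene symbol. The organ is a paired tube at the base of the nasal septum that senses pheromones, and its sensory neurons (VSNs) fall into an apical branch, which uses V1R receptors and the G protein subunit Gnai2, and a basal branch, which uses V2R receptors and Gnao1. Cells came from postnatal day 60 male mice of the C57BL/6J strain labelled wild type, with no treatment named, and 5 mice gave the cells of 2 libraries, VNO_1 and VNO_2, and the labels do not say which animals entered which library. The organs were dissociated with papain and collagenase, the cells were frozen in serum with DMSO and later thawed, and 3′ ends of transcripts were counted with unique molecular identifiers (UMIs) on the Chromium platform. All values below therefore describe cells that survived this handling in 1 strain, sex and age, and p-values measure only the spread between these libraries, which may be technical.

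Metallothioneins are small proteins, rich in cysteine, that bind zinc and copper and also react with oxidants. Mt1 and Mt2 are made in most tissues and are known to be induced together by zinc, glucocorticoids and oxidative stress, in large part through the zinc-sensing transcription factor Mtf1, which binds metal response elements in their promoters. Mt3 was first described as a growth inhibitory factor of the brain, is made mainly by neural cells and responds little to metals, and Mt4 is known from stratified squamous epithelium.

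All of the family lie in 1 cluster on the plus strand of mouse chromosome 8. In GENCODE release M21 (GRCm38, the sequence of mm10) Mt3 runs from base 94152607 to 94154146, Mt2 from 94172664 to 94173568 and Mt1 from 94179082 to 94180327, so that 18517 bases separate Mt3 from Mt2 and 5513 bases separate Mt2 from Mt1. Mt4, at 94137197 to 94139031, had 0 UMIs in the 10592 cells analysed and 1 UMI in all 24084 barcodes. The antisense gene Gm45774 covers 749 of the 905 bases of Mt2 on the minus strand. It had 99 UMIs in the cells analysed against 29364 for Mt2, and since no source used here gives the strand setting of the counting, reads of the pair cannot be told apart with certainty. Across cell classes the levels of Mt1 and Mt2, given below, rose and fell together, and that of Mt3 did not follow them. Any part of the promoters in these levels was not tested. The sequence before the first annotated start of each member is shown as a description. It was taken from the RefSeq promoter windows of build GRCm38.p6 (plus strand), and capitals mark the 7-base core of a metal response element, TGCACNC or TGCGCNC, on either strand.
Mt1, chr8:94178839-94179081: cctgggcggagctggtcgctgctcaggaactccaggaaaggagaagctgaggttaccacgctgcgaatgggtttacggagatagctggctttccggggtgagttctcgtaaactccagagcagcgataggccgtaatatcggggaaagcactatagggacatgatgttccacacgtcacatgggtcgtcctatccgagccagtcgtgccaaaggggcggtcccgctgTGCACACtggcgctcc
Mt2, chr8:94172368-94172617: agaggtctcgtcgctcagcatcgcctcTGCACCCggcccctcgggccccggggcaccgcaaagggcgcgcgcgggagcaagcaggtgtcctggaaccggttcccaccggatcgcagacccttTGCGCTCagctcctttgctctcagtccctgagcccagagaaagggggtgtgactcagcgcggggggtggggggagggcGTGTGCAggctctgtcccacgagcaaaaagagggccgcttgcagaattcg
Mt3, chr8:94152357-94152606: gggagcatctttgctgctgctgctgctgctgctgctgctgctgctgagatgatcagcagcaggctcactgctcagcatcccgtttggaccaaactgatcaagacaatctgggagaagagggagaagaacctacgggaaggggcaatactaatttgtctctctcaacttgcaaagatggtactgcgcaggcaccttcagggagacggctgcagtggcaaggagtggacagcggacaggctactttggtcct
Within the whole windows of 300 bases, which run on past these stretches, the core was present 3 times for Mt1, 4 times for Mt2 and 1 time for Mt3. Of 32817 windows of this length over all genes, 25.7% held at least 1 core and 1.97% held at least 3. The last annotated start lies beyond the end of the window by 102 bases for Mt1, 192 bases for Mt2 and 89 bases for Mt3, and the sequence there was not searched. A match describes letters only, and deposited counts do not say which start was used.

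The matrix held 12814 barcodes of the library VNO_1 and 11270 of VNO_2. After filtering, 5694 and 4898 cells remained, with 48179045 and 40960295 UMIs and a median of 6668 and 6650.5 UMIs per cell. The limits of the filter are those the study states, but the number of cells left was not exactly that of the study. The 2 libraries shared 33 barcode sequences, 3 of them among the cells kept. Cells were clustered without Mt1, Mt2, Mt3 and Mt4, and 20 classes covering 8363 cells were named from marker lists; 2229 cells stayed unnamed. Names ending in "-like" rest on these lists. For the neuronal branches, the basal list (Tfap2e, Gnao1, Robo2, Vmn2r1, Vmn2r2 and H2-M10.3) summed to 1221 and 1136 UMIs per 1000000 UMIs (CPM) in mature basal VSN-like cells against 10.1 and 13.8 CPM in mature apical VSN-like cells. Of the 6 mature VSN markers, 2 (Omp and Umodl1) were at least 4-fold higher in the mature basal cluster than in all other cells. In the mature apical cluster 5 of the 6 were, so the word mature rests on fewer markers in the basal branch. No mural class could be named. Of the 212 cells in 1 unnamed cluster 99.1% came from VNO_1, and no comparison below uses it. Groups were formed by the other genes of the same cells, so tests of genes that shaped the clusters are descriptions of them, while the members were kept out of the clustering.

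Mt1 had 167512 UMIs in 63.6% of cells and was highest in the epithelial and supporting cells. In each class the UMIs were summed per library and divided by all UMIs of the sum, which gives a level in CPM. Basal-like cells (Krt5, Krt14), the stem cells of the epithelium, had 6556 CPM in VNO_1 and 6050 CPM in VNO_2. They held 32.8% of all Mt1 UMIs but 9.73% of all UMIs. Sustentacular-like cells, the supporting cells of the sensory epithelium, had 3947 and 3706 CPM, non-sensory epithelium-like cells had 3347 and 3460 CPM and ciliated-like cells had 2781 and 3525 CPM. Basal-like and sustentacular-like cells stood apart from all others in both libraries, and non-sensory epithelium-like and ciliated-like cells overlapped. Ensheathing-like cells, the glia of the vomeronasal nerve, had 1873 and 2043 CPM, gland-like cells 1779 and 1719 CPM, fibroblast-like cells 1869 and 1292 CPM and progenitor-like cells (Sox2) 1739 and 1387 CPM. Gland-like and fibroblast-like cells, and fibroblast-like and progenitor-like cells, overlapped.

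Immune, vascular and neuronal cells had less Mt1. Macrophage-like cells had 458 and 467 CPM, neutrophil-like cells 240 and 328 CPM and endothelial-like cells 147 and 166 CPM, and their sums did not overlap one another. Precursor-like cells (Neurog1, Neurod1) had 234 and 242 CPM and mature apical VSN-like cells 112 and 106 CPM. Immature VSN-like cells were lowest, with 42.0 and 32.1 CPM in the apical and 45.6 and 32.2 CPM in the basal branch, so that the highest and the lowest class differed by 170-fold. Of the 19 pairs of neighbours in the order of Mt1 levels, 11 overlapped between libraries. In some classes a few cells carried the level. In T cell-like cells Mt1 had 53.0 CPM in VNO_1 and 253 CPM in VNO_2, where 1 cell held 96 of the 132 UMIs. In mature basal VSN-like cells it had 97.4 and 278 CPM, and 1 cell of VNO_2 held 103 of 247 UMIs, where the sustentacular list summed to 172 CPM against 57.6 CPM in VNO_1. In dendritic-like cells the level of 519 CPM fell to 148 CPM without the cells called as doublets, and the basal cell markers summed to 255 and 308 CPM there, whose part in the level was not tested.

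**Figure D1:**
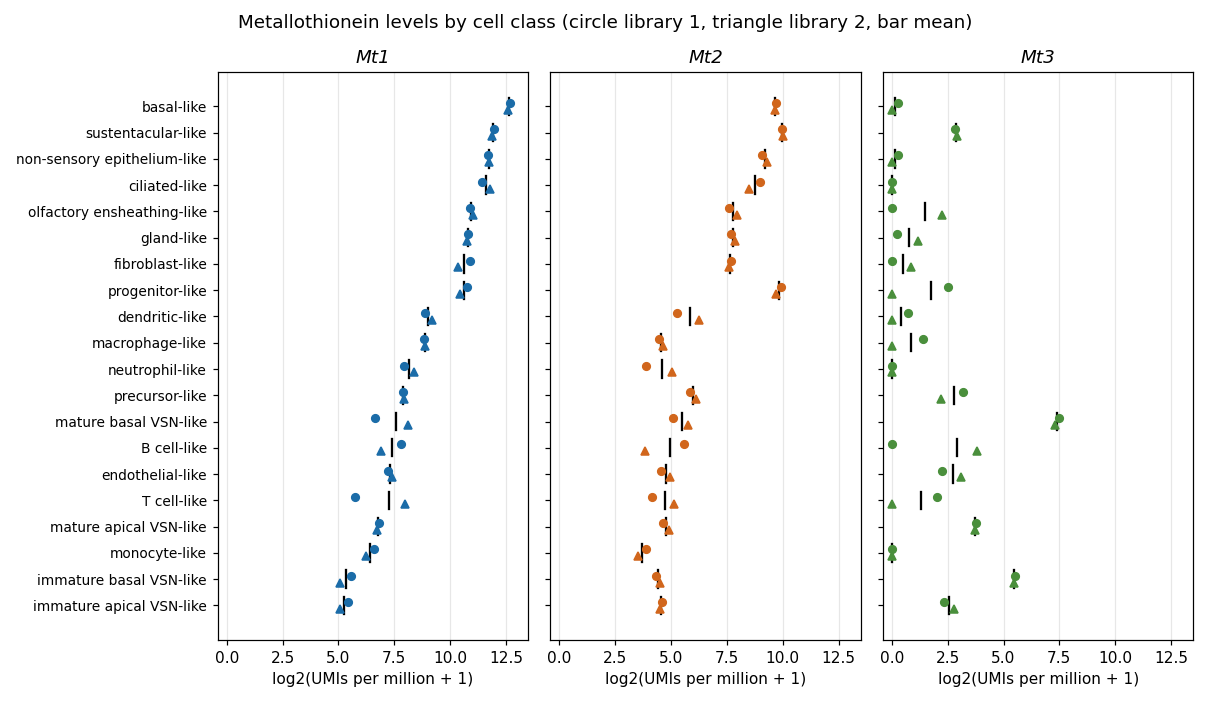
Levels of Mt1, Mt2 and Mt3 in the 20 named classes on the scale log2(UMIs per 1000000 + 1), with a circle for VNO_1, a triangle for VNO_2 and a bar for the mean of both. Classes are in the order of Mt1. Mt1 is highest in epithelial and supporting classes, and Mt2 in sustentacular-like, progenitor-like and basal-like cells. Mt3 is highest in mature basal VSN-like cells, at 177 and 155 UMIs per 1000000.

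Mt2 had 29364 UMIs in 39.0% of cells. Its order differed from that of Mt1 at the top: sustentacular-like cells led with 987 and 1022 CPM, progenitor-like cells followed with 973 and 824 CPM, and basal-like cells had 831 and 803 CPM. Sustentacular-like cells were above both others in each library, while progenitor-like and basal-like cells overlapped. The progenitor-like class had only 27 cells in VNO_1 and 15 in VNO_2, and its highest cell held 83 of 619 and 56 of 227 Mt2 UMIs. For Mt1 its highest cell held 230 of 1106 and 60 of 382 UMIs. Non-sensory epithelium-like cells had 532 and 632 CPM, ciliated-like cells 502 and 358 CPM, gland-like cells 203 and 235 CPM, ensheathing-like cells 194 and 243 CPM and fibroblast-like cells 205 and 190 CPM. Precursor-like cells had 56.5 and 67.7 CPM. The neuronal classes lay between 19.2 and 53.9 CPM, and of the 19 pairs of neighbours 13 overlapped. Such levels rest on few molecules in small classes, and immature basal VSN-like cells had 16 and 12 UMIs of Mt2.

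The share of Mt2 in the UMIs of Mt1 and Mt2 differed between classes. Between the libraries its intervals overlapped in 16 of 20 classes and lay apart in non-sensory epithelium-like, ciliated-like, fibroblast-like and gland-like cells, and in ciliated-like cells it was 15.3% (11.95 to 19.1%) in VNO_1 and 9.21% (7.02 to 11.8%) in VNO_2. In progenitor-like cells Mt2 made up 35.9% (95% exact binomial interval 33.6 to 38.2%) in VNO_1 and 37.3% (33.4 to 41.3%) in VNO_2. In sustentacular-like cells it made up 20% (19.2 to 20.8%) and 21.6% (20.7 to 22.5%), and in basal-like cells 11.2% (10.9 to 11.6%) and 11.7% (11.3 to 12.1%). Macrophage-like cells had the lowest share, 4.39% (3.48 to 5.45%) and 4.91% (3.96 to 6.00%). The intervals of these 4 classes did not overlap in either library. They cover counting error only and not the spread between cells, and the progenitor-like class had 27 and 15 cells. Immature apical VSN-like cells, with 64 and 37 UMIs of the pair in all, had 35.9% (24.3 to 48.9%) and 40.5% (24.8 to 57.9%).

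**Figure D2:**
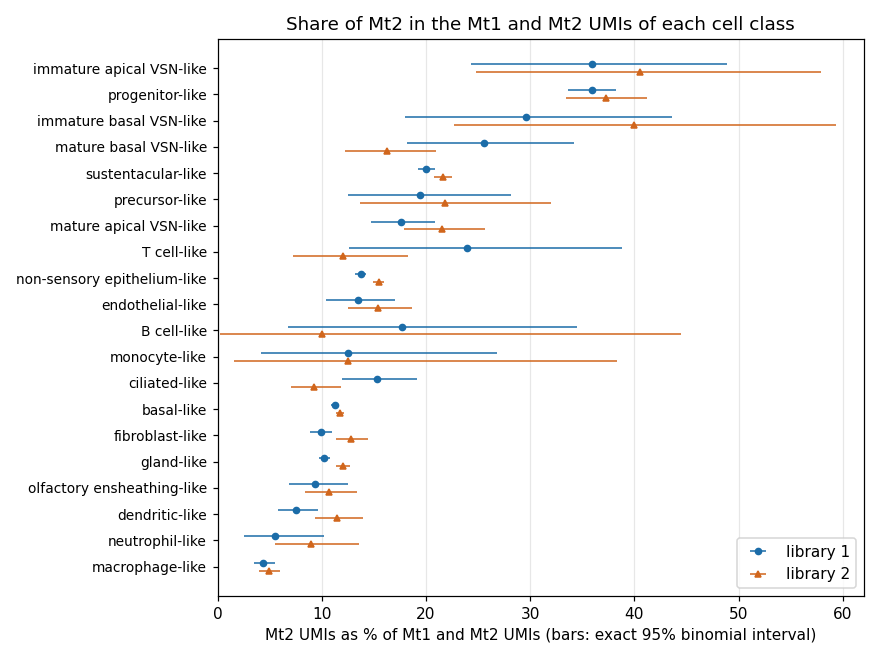
Mt2 UMIs as a percentage of the Mt1 and Mt2 UMIs of each class, with circles and blue for VNO_1, triangles and orange for VNO_2, and bars for the exact 95% binomial interval. The share is 35.9% and 37.3% in progenitor-like cells, 11.2% and 11.7% in basal-like cells and 4.39% and 4.91% in macrophage-like cells.

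Mt1 and Mt2 were also found in the same cells. After each cell had been thinned to 1500 UMIs, 52.3% and 55.8% of basal-like cells and 73.8% and 70.1% of sustentacular-like cells held UMIs of both genes, and only 5.56% and 8.60% of the former and 2.07% and 2.19% of the latter held neither. Among gland-like cells 36.8% and 29.9% held neither, while the highest gland-like cell held 556 Mt1 UMIs before thinning. Across thinned cells of 1 class and library, Spearman's rho between the pair was 0.52 and 0.44 in gland-like cells, 0.34 and 0.44 in basal-like cells and -0.02 and -0.06 in mature apical VSN-like cells. These describe cells that share a library, and in the neurons the counts were too sparse to read a relation.

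Mt3 had 946 UMIs in 474 cells, and its level was highest in mature basal neurons. Mature basal VSN-like cells had 169 UMIs (177 CPM) in VNO_1 and 138 UMIs (155 CPM) in VNO_2. They made up 1.03% of the cells and held 32.5% of all Mt3 UMIs. Immature basal VSN-like cells had 44.4 and 42.9 CPM, mature apical VSN-like cells had 12.6 and 12.04 CPM and immature apical VSN-like cells had 4.10 and 5.83 CPM, in that order in both libraries with no overlap. Sustentacular-like cells had 6.02 and 6.45 CPM and endothelial-like cells 3.80 and 7.47 CPM. Of the 32 UMIs in endothelial-like cells, 29 were in 1 cluster that had the adhesion genes Vcam1 and Sele among its leading genes. Neutrophil-like, monocyte-like and ciliated-like cells had 0 UMIs; 0 of 754 neutrophil-like cells allows a share of cells with an Mt3 UMI of up to 0.398%, and at a median of only 1592.5 UMIs it sets no limit on cells that express the gene.

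At least 1 Mt3 UMI was seen in 87.2% of the 109 mature basal VSN-like cells (exact interval 79.4 to 92.8%), at a median of 17162 UMIs per cell, and in 14% (11.3 to 17.1%) of the 593 mature apical VSN-like cells, at a median of 13544 UMIs. In basal-like cells, which had a median of 8181 UMIs, the share was 0.0942%. After thinning to 1500 UMIs, which left out none of the mature neurons, the shares were 15.6% and 2.02%. All 593 mature apical VSN-like cells had more Gnai2 than Gnao1 UMIs. Gnai2 was among the markers that named this class, so that outcome was largely set in advance. The source of the Mt3 UMIs of the class was not tested. Among immature basal VSN-like cells, the 70 and 58 cells with more Gnao1 than Gnai2 had 53.4 and 43.2 CPM of Mt3, and the 10 and 6 cells with the reverse had 9.18 and 21.9 CPM, on 1 UMI in each library. The 11 and 3 cells with equal counts of both had 22.9 and 73.0 CPM, on 2 UMIs in each library. Outside the named classes, 1 cluster of 305 cells with a median of 27734 UMIs held 312 Mt3 UMIs (36.3 and 30.2 CPM). Its leading genes held Omp and vomeronasal receptors as well as Ppic, Krt23 and Calml4, which also led the sustentacular-like cluster, and it was left unnamed.

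Along the lineage the levels of Mt1 and Mt2 went down from progenitor-like cells to immature neurons, while Mt3 was barely detected in progenitor-like and precursor-like cells, with 3 and 4 UMIs and overlapping levels. Mt1 went from 1739 and 1387 CPM in progenitor-like cells to 234 and 242 CPM in precursor-like cells, to 98.0 and 78.0 CPM in an unnamed cluster led by Gal and Uncx, to 71.3 and 68.9 CPM in a second one led by Mss51 and Gal, and to the immature levels given above. Mt2 went from 973 and 824 CPM to 56.5 and 67.7 CPM, 35.9 and 32.5 CPM and 19.8 and 25.1 CPM over the same clusters. Mt3 had 4.72 and 0 CPM, 8.07 and 3.56 CPM, 22.9 and 22.8 CPM and 23.8 and 28.2 CPM. Both unnamed clusters thus lay below the immature basal and above the immature apical level of Mt3. That basal level joins a cluster of 104 cells at 23.2 and 40.9 CPM and one of 54 cells at 72.5 and 46.7 CPM. In VNO_1 the unnamed clusters did not lie apart from the larger of these. The place of the unnamed clusters before the branches was set by hand and is assumed, since no trajectory was computed. Mt1 and Mt2 were among the leading genes of the progenitor-like cluster although they had been left out of its making.

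**Figure D3:**
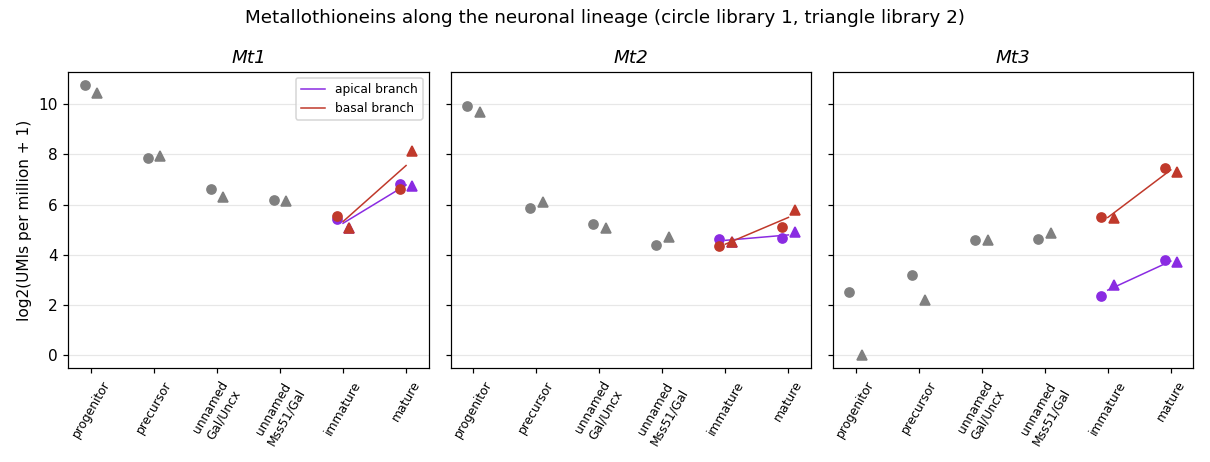
Levels of Mt1, Mt2 and Mt3 in the neuronal lineage as log2(UMIs per 1000000 + 1), with purple for the apical and red for the basal branch, circles for VNO_1 and triangles for VNO_2. Grey points are progenitor-like cells, precursor-like cells and the unnamed clusters led by Gal and Uncx and by Mss51 and Gal. Their order was set by hand, and lines join branch means. Mt1 and Mt2 drop from progenitor-like to immature cells, and Mt3 is higher in the basal than in the apical branch at both stages.

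To ask how the members differed between progenitors and neurons, progenitor-like and precursor-like cells were summed and compared with both immature VSN-like classes. Mt1 had 1184 and 809 CPM in the former against 43.7 and 32.1 CPM in the latter. Mt2 had 635 and 442 CPM against 21.6 and 21.7 CPM, and neither gene overlapped between the groups. Of the 1193 and 450 Mt1 UMIs of the summed group, progenitor-like cells held 1106 and 382. Of its 640 and 246 Mt2 UMIs they held 619 and 227. Precursor-like cells alone had 234 and 242 CPM of Mt1 and 56.5 and 67.7 CPM of Mt2, so the differences below describe mainly progenitor-like cells. Mt1 was higher by 4.64 ± 0.24 (SE) on the log2 scale (edgeR quasi-likelihood test with Benjamini-Hochberg adjustment over 12127 genes, adjusted p = 1.6e-09) and Mt2 by 4.59 ± 0.24 (adjusted p = 1.66e-09). Mt3, at 6 and 1 UMIs against 41 and 28 UMIs, was lower by 2.38 ± 0.49 on the log2 scale (adjusted p = 0.00123), which did not pass after each cell was thinned to 1500 UMIs (-1.79, adjusted p = 0.405). Without VNO_1 this value of Mt3 was -3.57, on 1 UMI in the progenitors and precursors of VNO_2, and without VNO_2 it was -1.94. In this comparison 40.7% of all genes tested passed, so that 3 of 3 members passing is to be read against that share, and 4.40% of genes had a log2 difference as large as that of Mt1. Sustentacular markers summed to 412 and 171 CPM in progenitor-like cells and to 43.0 and 32.1 CPM in precursor-like cells, against 5194 and 4920 CPM in sustentacular-like cells; their part in the difference was not tested.

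The other genes examined were divided. Of 14 immediate early and dissociation genes tested, 12 were higher and 1 lower in progenitors and precursors, with a median log2 difference of 1.50 against -0.02 over all genes; among the former were Nr4a1 (3.42 ± 0.37, adjusted p = 2.74e-06) and Ier2 (2.30 ± 0.26, adjusted p = 5.31e-06), both rapidly induced transcription regulators. The part of handling in the Mt1 and Mt2 difference was not tested. Of 12 oxidative stress genes, 3 were higher, led by the peroxidase Prdx1 (3.56 ± 0.21, adjusted p = 7.34e-09), and 1 was lower. Among 6 regulators 2 were higher, Mtf2 and the oxidant-responsive factor Nfe2l2 (0.76 ± 0.26, adjusted p = 0.0308), and Mtf1 did not pass. Of 5 zinc exporters tested 2 were lower, Slc30a9 and Slc30a1 (-1.75 ± 0.28, adjusted p = 0.000152), the latter being the exporter of the plasma membrane; of 8 zinc importers 1 was higher and 1 lower.

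Mature and immature VSN-like cells were compared with both branches summed. Mt1 had 110 and 141 CPM in mature cells against 43.7 and 32.1 CPM in immature cells and was higher by 1.72 ± 0.19 on the log2 scale (edgeR, adjusted p = 0.000293). Mt3 had 40.6 and 41.7 CPM against 22.7 and 22.5 CPM and was higher by 0.89 ± 0.18 (adjusted p = 0.00584), and both genes were higher in mature cells in each library with no overlap. Mt2, at 25.6 and 34.2 CPM against 21.6 and 21.7 CPM, had a log2 difference of 0.48 ± 0.22 that did not pass (adjusted p = 0.112). Here 42.0% of 13433 genes passed. After thinning to 1500 UMIs the difference of Mt3 no longer passed (0.46, adjusted p = 0.551). The mix of branches also differed, with 109 basal to 593 apical cells among mature and 158 to 192 among immature cells, and within each branch the levels of Mt3 above were higher in mature cells in both libraries.

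Mature cells also had more of many stress genes: 8 of 12 oxidative stress genes were higher, among them Nqo1 (2.84 ± 0.19, adjusted p = 2.87e-05), and 1 was lower. Of 6 regulators 3 were higher and 2 lower. Mtf1 was higher by 0.68 ± 0.14 (adjusted p = 0.00602), Nfe2l2 by 1.93 ± 0.17 (adjusted p = 9.04e-05) and the glucocorticoid receptor Nr3c1 by 2.23 ± 0.31 (adjusted p = 0.000935), and Mtf2 was lower (-0.79 ± 0.17, adjusted p = 0.00815). Of 9 zinc importers, 5 were higher, led by Slc39a14 (3.72 ± 0.51, adjusted p = 0.000902), and 1 was lower. Among 8 glucocorticoid-induced genes 1 was higher and 3 lower, with Dusp1 at -1.86 ± 0.15 (adjusted p = 6.37e-05), and of 14 immediate early and dissociation genes 10 were higher and 3 lower.

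Between the branches, Mt3 differed at both stages and Mt1 and Mt2 did not pass at either. Among immature neurons Mt3 had 4 UMIs in each library of the apical branch (4.10 and 5.83 CPM) and 37 and 24 UMIs in the basal branch (44.4 and 42.9 CPM). It was lower in apical cells by 3.18 ± 0.41 on the log2 scale (edgeR, adjusted p = 0.000145), where 6.89% of 10615 genes passed. That share is 731 genes, against 1292 with a replicate block on the library. With each cell thinned to 1500 UMIs the difference was -3.30 and did not pass (adjusted p = 0.125). Mt1 overlapped between the branches (-0.12 ± 0.31, adjusted p = 0.901). Mt2, at 23.6 and 21.9 CPM in apical against 19.2 and 21.5 CPM in basal cells, did not overlap but had a difference well within its error (0.13 ± 0.35, adjusted p = 0.907).

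Among mature neurons Mt3 had 12.6 and 12.04 CPM in apical and 177 and 155 CPM in basal cells, a 13.5-fold difference of means, and was lower in apical cells by 3.83 ± 0.16 on the log2 scale (adjusted p = 2.5e-05). Of 12721 genes 9.37% passed, 1192 genes in all, against 2658 with a replicate block. Mt1 had 112 and 106 CPM in apical and 97.4 and 278 CPM in basal cells, and the groups overlapped (-0.86 ± 0.39, adjusted p = 0.239). Mt2 had 24.01 and 29.1 CPM in apical and 33.5 and 53.9 CPM in basal cells, which did not overlap (-0.81 ± 0.26, adjusted p = 0.105). With the replicate block both passed, Mt1 at -0.76 (adjusted p = 0.000248) and Mt2 at -0.79 (adjusted p = 0.00159), but the Mt1 value turned to 0.12 without VNO_2, whose basal cells held the cell with 103 Mt1 UMIs. The difference between branches in the change with maturation passed for none of the members by the edgeR interaction test (Mt1 -0.70 ± 0.60, adjusted p = 0.703, Mt2 -0.91 ± 0.42, adjusted p = 0.411, Mt3 -0.59 ± 0.44, adjusted p = 0.759), where 1.24% of genes passed. The count was 621 genes with a replicate block against 166 without, and at an unadjusted p under 0.05 it was 1695.

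Gnao1, the G protein subunit of the basal branch, lies in the same stretch of chromosome 8, from base 93809966 to 93969388 and 183218 bases before Mt3. It was lower in apical cells by 2.58 ± 0.18 on the log2 scale among immature neurons and had a log2 difference of -6.12 ± 0.22 among mature neurons. It was one of the markers that named the branches, and these values are descriptions. Of the other neighbours of the locus, Herpud1, an endoplasmic reticulum stress protein, was lower in apical cells at both stages (-0.75 ± 0.17, adjusted p = 0.0152 and -0.92 ± 0.11, adjusted p = 0.0027), and the other tested neighbours, 3 among immature and 5 among mature neurons, did not pass. Of the copper genes, Atox1, a copper chaperone, was lower in apical cells at both stages (-1.34 ± 0.16, adjusted p = 7.64e-05, and -2.12 ± 0.18, adjusted p = 0.000578), as was Ccs, the copper chaperone for superoxide dismutase (-0.97 ± 0.28, adjusted p = 0.049, and -0.71 ± 0.16, adjusted p = 0.039). Of the zinc importers 1 of 6 passed among immature neurons, Slc39a7 (-1.04 ± 0.29, adjusted p = 0.0418), and 0 of 9 among mature ones; no zinc exporter passed at either stage.

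Supporting cells were compared with the mature neurons that they surround. Mt1 had 3947 and 3706 CPM in sustentacular-like cells against 110 and 141 CPM in mature VSN-like cells, and Mt2 had 987 and 1022 CPM against 25.6 and 34.2 CPM, with no overlap for either. Mt1 was higher by 5.08 ± 0.15 on the log2 scale (edgeR, adjusted p = 3.61e-06) and Mt2 by 5.22 ± 0.15 (adjusted p = 3.43e-06). Mt3, at 6.02 and 6.45 CPM against 40.6 and 41.7 CPM, was lower by 2.58 ± 0.20 (adjusted p = 0.000107), a difference that did not pass after thinning (-1.83, adjusted p = 0.0524). In this comparison 59.6% of 14140 genes passed. Of 9 glucocorticoid-induced genes 8 were higher in sustentacular-like cells and 1 lower, with Cebpd at 4.97 ± 0.14 (adjusted p = 3.49e-06), of 12 oxidative stress genes 9 were higher and 0 lower, and of 14 immediate early and dissociation genes 14 were higher, with a median log2 difference of 4.23 against -0.08 over all genes. Of 6 regulators 3 were higher, Hif1a (2.09 ± 0.12), Nfe2l2 (2.17 ± 0.13) and Keap1 (1.00 ± 0.15), and Mtf1 was lower (-2.07 ± 0.19, adjusted p = 0.000186). Of 7 zinc exporters 4 were lower, among them Slc30a1 and Slc30a9, and Slc30a7 was higher (1.22 ± 0.30, adjusted p = 0.0128). Of 10 copper genes 4 were higher and 3 lower, with Cp, the copper oxidase ceruloplasmin, at 7.01 ± 0.22 (adjusted p = 3.99e-06) and Slc31a2 at -2.75 ± 0.16 (adjusted p = 3.53e-05). In sustentacular-like cells the dendritic list, which holds the MHC class II gene H2-Ab1 and its chaperone Cd74, summed (6 of 8 detected) to 11034 and 8270 CPM and the macrophage list to 551 and 157 CPM. The part of these and of dissociation in the Mt1 and Mt2 difference was not tested.

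Ensheathing-like cells were compared with sustentacular-like cells as 2 supporting types, one of the nerve and one of the epithelium. Mt1 had 1873 and 2043 CPM in the former against 3947 and 3706 CPM, lower by 1.22 ± 0.15 on the log2 scale (edgeR, adjusted p = 2.64e-06). Mt2 had 194 and 243 CPM against 987 and 1022 CPM, lower by 2.44 ± 0.18 (adjusted p = 1e-09), and Mt3, with 0 and 1 UMIs against 11 and 11 UMIs, had a difference of -1.78 ± 1.24 that did not pass (adjusted p = 0.301). Of 11986 genes 30.5% passed. Of 12 oxidative stress genes 9 were lower in ensheathing-like cells, among them Gclc (-4.32 ± 0.31, adjusted p = 9.91e-10), the rate-limiting enzyme of glutathione synthesis, and 2 were higher. Of 6 regulators 2 were lower, Nfe2l2 (-2.37 ± 0.19, adjusted p = 6.28e-09) and Hif1a, Nr3c1 was higher (2.07 ± 0.40, adjusted p = 0.000415), and immediate early and dissociation genes were divided, with 6 higher and 4 lower. Endothelial markers (7 of 8 detected) summed to 1887 and 2139 CPM and fibroblast markers (6 of 6) to 734 and 1232 CPM in ensheathing-like cells, and their part in the differences was not tested.

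**Figure D4:**
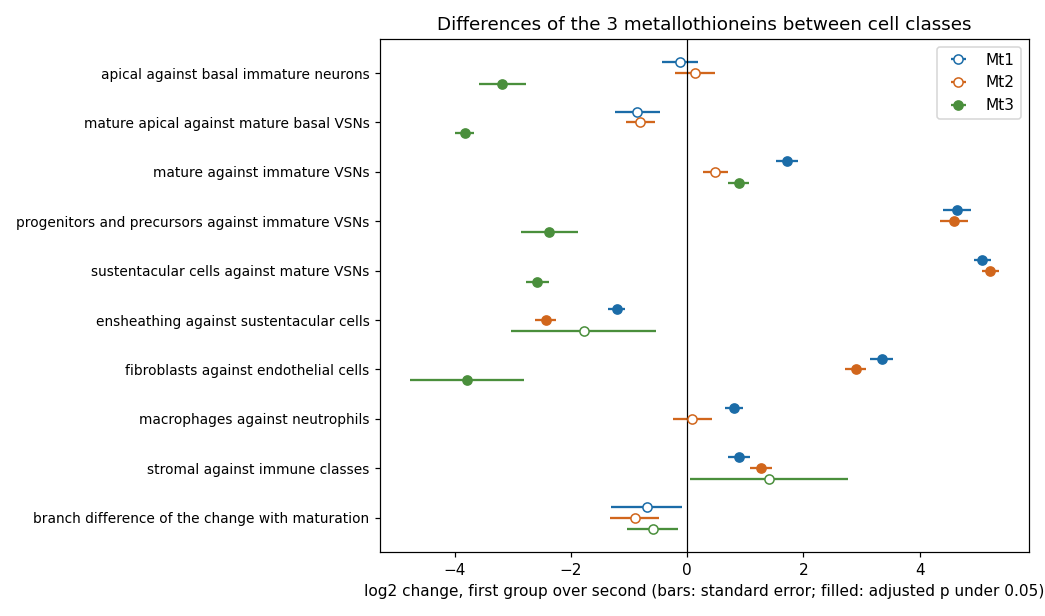
Differences of Mt1 (blue), Mt2 (orange) and Mt3 (green) on the log2 scale, first group over second, with bars for the standard error and filled points where the adjusted p is under 0.05; the last row is the interaction, the change with maturation of the apical minus that of the basal branch. Mt1 and Mt2 lie near 5 for sustentacular cells over mature neurons, where Mt3 lies below 0, and Mt3 is the only filled member in both comparisons of the branches.

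In the stroma, fibroblast-like and endothelial-like cells were compared. Mt1 had 1869 and 1292 CPM in fibroblast-like cells against 147 and 166 CPM, higher by 3.35 ± 0.20 on the log2 scale (edgeR, adjusted p = 8.6e-10). Mt2 had 205 and 190 CPM against 22.8 and 30.2 CPM, higher by 2.90 ± 0.18 (adjusted p = 2.13e-09), and neither overlapped. Mt3, with 0 and 1 UMIs against 10 and 22 UMIs, was lower by 3.79 ± 0.98 (adjusted p = 0.00552), a fitted value that rests on 1 UMI and did not pass by DESeq2 (adjusted p = 0.0852). It was -3.04 without VNO_1 and -5.63 without VNO_2. Of 13193 genes 38.4% passed. The zinc importer Slc39a8 was lower in fibroblast-like cells (-5.98 ± 0.34, adjusted p = 6.1e-10), 5 of 10 importers were higher and 2 lower, and Slc30a1 was lower (-2.28 ± 0.32, adjusted p = 2.71e-05). Of 6 regulators 0 were higher and 3 lower, Mtf1 (-1.19 ± 0.34, adjusted p = 0.01), Mtf2 and Hif1a, of 12 oxidative stress genes 2 were higher and 2 lower, and of 10 glucocorticoid-induced genes 3 were higher and 2 lower. Mural markers (8 of 8 detected) summed to 6076 and 5419 CPM in fibroblast-like cells, and their part in the level of Mt1 was not tested.

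The fibroblast-like level was a mean over unlike cells. The median over cells was 248 CPM where the summed level was 1580 CPM, and 63.7% of cells held an Mt1 UMI. Clustered again with the unnamed stromal cluster, 83 cells led by Osr1 and Corin had 1884 and 953 CPM. By contrast, 85 cells of the fibroblast-like class led by the vomeronasal receptor gene Vmn1r176, Fst and Stmn2 had 138 and 95.9 CPM, and 117 cells outside it, led by Cpxm2 and Egfl6, had 61.3 and 84.2 CPM, and neither overlapped with the first. The neuronal genes Stmn2, Sox11, Dlgap1 and Tubb3 were among the 10 leading genes of those 85 cells, and their part in the low level was not tested. A further 42 cells led by the cartilage genes Cytl1 and Mia had 1135 and 2421 CPM. Since subclusters were made from the same cells, these levels are a description. Another 2 subclusters of 36 and 17 cells were led by immune genes (Ccl4, Cd74) and by basal cell keratins (Krt14, Krt5).

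**Figure D5:**
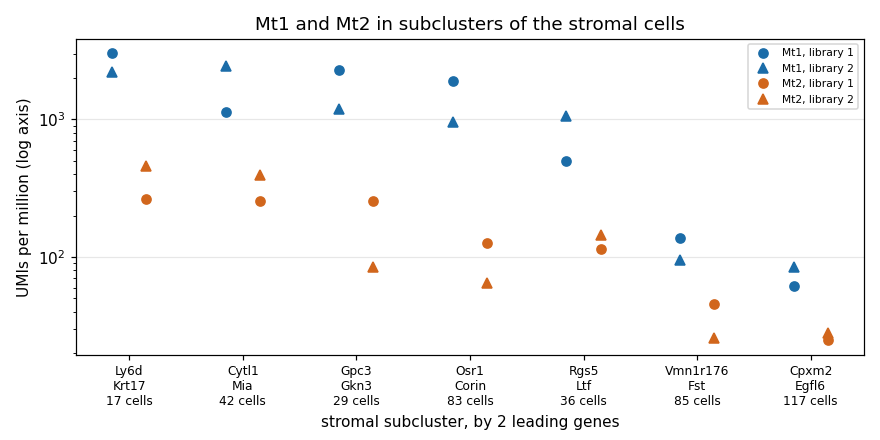
Mt1 (blue) and Mt2 (orange) in 7 of 8 stromal subclusters, each named by its leading 2 genes and its number of cells, in UMIs per 1000000 on a log axis, with circles for VNO_1 and triangles for VNO_2. Subclusters led by Cpxm2 or by Vmn1r176 and Fst lie below the others shown in Mt1, at 61.3 to 138 UMIs per 1000000.

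Among immune cells, Mt1 had 458 and 467 CPM in macrophage-like and 240 and 328 CPM in neutrophil-like cells and was higher in the former by 0.80 ± 0.15 on the log2 scale (edgeR, adjusted p = 0.000283), where 41.9% of 12041 genes passed. With cells of up to 10% mitochondrial UMIs admitted, the order turned, with neutrophil-like cells at 672 and macrophage-like cells at 474 CPM (-0.35, adjusted p = 0.0313). Mt2, at 21.03 and 24.1 CPM against 13.9 and 32.1 CPM, did not pass (0.09 ± 0.34, adjusted p = 0.859) but was lower in macrophage-like cells by 1.38 on the log2 scale under the wider limit (adjusted p = 0.000189). Mt3 had 6 and 0 UMIs against 0 and 0 and was not tested. The neutrophil-like clusters differed among themselves, with 137 and 164 CPM of Mt1 in cells that retained Camp and Ngp and 358 and 508 CPM in cells led by Il1r2 and Cxcl2. The macrophage-like clusters lay between 367 and 616 CPM. Fibroblast-like and endothelial-like classes together, weighed against the 6 immune classes, had more Mt1 by 0.89 ± 0.19 (adjusted p = 0.000192) and more Mt2 by 1.27 ± 0.18 (adjusted p = 2.92e-07), but the median over all 17864 genes was 0.53 in the same contrast and 38.1% of genes passed. Under the wider mitochondrial limit Mt1 had -0.10 (adjusted p = 0.897) and Mt2 0.45 (adjusted p = 0.0699), and Mt3 did not pass in the first contrast (1.41 ± 1.36, adjusted p = 0.502). Mt1 had 1869 and 1292 CPM in fibroblast-like but 147 and 166 CPM in endothelial-like cells. The latter lay below dendritic-like, macrophage-like and neutrophil-like cells and above monocyte-like cells, and overlapped with B cell-like and T cell-like cells. Mt2 had 205 and 190 CPM against 22.8 and 30.2 CPM, so the contrast describes mainly fibroblast-like cells.

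The genes most like each member were sought over the 40 sums of class and library by Pearson's r of log2(CPM + 1), among 17863 genes of at least 10 UMIs. Mt1 and Mt2 were the most alike, with r = 0.91, each ranking first for the other. Mt1 was followed by Sdc4, a heparan sulfate proteoglycan (0.89), the glutathione transferase Gsta4 (0.88), the transcription factor Tead3 (0.88) and the glutathione transferase Gstm2 (0.87). Mt2 was followed by the progenitor and supporting cell factor Sox2 (0.89), the kinase Frk (0.89), Tead3 (0.88) and the homeobox factor Six2 (0.87). Mt3 was most like Krt72, a keratin (0.85), Arpc5l, a subunit of the actin-nucleating Arp2/3 complex (0.84), Coch (0.84), Sgpp2 (0.83) and Pirt (0.83), which were all highest in mature basal VSN-like cells. Against mature apical VSN-like cells, Coch had 60.7 to 56.8 CPM, Pirt 98.7 to 82.4 CPM and Arpc5l 548 to 399 CPM. Krt72 had 88.9 to 23.4 CPM and Sgpp2 56.9 to 27.4 CPM, so several of these genes were nearly as high in the apical branch. Between Mt3 and Mt1 r was -0.48, and between Mt3 and Mt2 it was -0.29. With 1 point per class, Gsta4 came first for Mt1, Frk for Mt2 and Arpc5l for Mt3. The points share libraries and differ in depth, and these values are descriptions.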

How the data were processed

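The authors counted reads with Cell Ranger 4 on mm10 (bcl2fastq and Seurat 3.2.3 are also named in the submitters' processing notes) and deposited 1 matrix of UMI counts per gene and barcode for both libraries, which are raw, whole numbers. No source used here gives the strand setting. The filter required 200 to 9000 genes and no more than 5% mitochondrial UMIs in a cell, and 3 or more barcodes for a gene. They were clustered with Seurat 5.3.0 (2000 variable genes without Mt1, Mt2, Mt3 and Mt4, resolution 0.8, neuronal lineage 1.0), and clusters were named from marker lists. Scrublet called 192 doublets, which were kept in the main values. UMIs were summed per class and library (n = 2), and genes with at least 10 UMIs were tested with edgeR 4.0.16 (TMM, quasi-likelihood, two-sided, Benjamini-Hochberg over all genes tested, threshold 0.05, R 4.3.3). DESeq2 1.42.0 was an alternative. Exact binomial intervals (95%) and the limit for a count of 0 (3 counts) cover counting error only. UMIs are counted at 3′ ends and were not scaled to gene length, so levels are not compared between members, and a share of Mt2 is a share of UMIs.

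Named were the members, up to 4 genes per list of smallest adjusted p, and the 5 genes most like each member. The members and lists were chosen with earlier results of these data known. Sums of 1 library share its number and so are paired by construction, and correlations of their deviations lay between 0.0198 and 0.0709 over 8 comparisons. The libraries differed by more than counting noise in all 20 classes (chi-square per degree of freedom 1.79 to 10.2), which spread between cells also gives, so it does not show that they are independent. On simulated counts the test found 80% of genes changed by 2 on the log2 scale between mature branches, where 12.3% of its calls were false, and the share of false calls reached 15.2% for sustentacular cells against mature VSNs. Protein sequences were not used here, and 1 stromal subcluster is not reported here.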

Additional observations from a re-analysis of the deposited data

How the results depend on the processing

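All tests rest on 2 libraries, whose mice are not told apart, and p-values describe the spread between them. Sums share a library number, and the replicate block moved the counts of called genes to 1292 between immature branches, 2658 between mature branches and 621 for the branch difference of the change with maturation, and it let Mt1 (-0.76) and Mt2 (-0.79) pass between mature branches; it changed no other call of a member. Without a filter on low counts those 2 genes also passed (-0.82 and -0.77) with 2160 genes called, the branch difference had 502 genes, and with filterByExpr Mt2 passed (-0.82). With each cell thinned to 1500 UMIs the counts fell to 182, 166, 2437, 1230, 3826, 1393, 2802, 4201 and 36 genes, for immature branches, mature branches, mature against immature, progenitors and precursors, sustentacular, ensheathing, fibroblast, stromal and branch difference in turn, on fewer UMIs. Mt3 then no longer passed between immature branches (-3.30), mature and immature VSNs (0.46), progenitors and precursors and immature VSNs (-1.79) and sustentacular cells and mature VSNs (-1.83), but still did between mature branches (-3.03). Thinning also turned uncalled values, for Mt2 between immature branches (-0.31) and with maturation (-0.16) and for Mt3 in the branch difference (0.43). DESeq2 called 286 genes between immature branches, 2449 for progenitors and precursors and 3236 for fibroblasts, where Mt3 did not pass (-3.96). With a mitochondrial limit of 10% and cells clustered again, Mt1 (-0.35) and Mt2 (-1.38) turned between macrophages and neutrophils, Mt1 turned (-0.10) and Mt2 no longer passed (0.45) between stromal and immune classes, Mt1 turned between immature branches (0.15) and Mt3 between ensheathing and sustentacular cells (0.31), where 6400 genes were called; the cause was not tested in any of these. Leaving out either library gave Mt3 between -3.57 and -1.94 for progenitors and precursors, between -2.59 and -2.55 for sustentacular cells and between -5.63 and -3.04 for fibroblasts, Mt2 between 1.30 and 1.40 for stromal classes and between -0.97 and -0.76 in the branch difference, and Mt1 between -1.49 and 0.12 between mature branches, with no test. Of the member differences tested under alternatives, 238 kept direction and side of the threshold, 8 turned, 6 no longer passed and 5 came to pass. Of 58 values with 1 library left out, which have no test, 5 turned in sign, none of them a difference that had passed. Progenitors were not compared with the metallothioneins kept in the clustering, since no progenitor class could then be named. Fibroblast-like cells without subclusters of mixed markers, an alternative chosen after seeing the data, changed no call.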

Other observations

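Cells with 5 to 20% mitochondrial UMIs had more Mt1 and Mt2 per UMI than the cells kept, and cells with more than 20% had less. Over all barcodes with 5 to 10% mitochondrial UMIs, Mt1 had 2633 CPM in VNO_1 and 2363 CPM in VNO_2, against 1910 and 1844 CPM at up to 5%, and Mt2 had 604 and 600 CPM against 322 and 339 CPM. At 10 to 20% Mt1 had 2164 and 2088 CPM and Mt2 503 and 522 CPM, at 20 to 50% Mt1 had 1203 and 1256 CPM and Mt2 279 and 292 CPM, and at 50 to 100% Mt1 had 515 and 345 CPM and Mt2 93.6 and 87.6 CPM. Mixes of cell classes were not matched between these bins. An unnamed cluster of 36 cells led by Gpha2, Mgp and cycling genes (Top2a, Birc5) had 512 and 276 CPM of Mt1 and 199 and 138 CPM of Mt2, between the levels of progenitor-like and precursor-like cells. The fibroblast marker Dcn and Sparc were also among its leading genes. The part of fibroblast transcripts in these levels was not tested.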
